A study of Mus musculus with 4 samples.

Results

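Galectins are lectins that bind beta-galactoside sugars on glycoproteins and glycolipids. The 8 galectin genes Lgals1, Lgals2, Lgals3, Lgals4, Lgals6, Lgals7, Lgals8 and Lgals9 were taken by exact gene symbol from the 26214 symbols of the count files, and 8 of 8 were found. They were chosen by name with earlier results of the same comparison known, namely read counts in tumours with against tumours without the epithelial deletion. Levels, differences and calls of these 8 genes are therefore a description of these libraries and support nothing beyond them.

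Tumours came from mouse colon, induced with the carcinogen azoxymethane followed by the mucosal irritant dextran sulfate sodium. In 2 libraries the tumour tissue was labelled Gsk3b (IEC-/-), for loss of the kinase gene Gsk3b from intestinal epithelial cells, and in 2 libraries it was labelled Gsk3b (IEC+/+). All 4 were polyadenylated RNA of whole tumour tissue from mice given both agents. The sources used here do not give the Cre driver, the strain, the age, the schedule of treatment, or whether replicates derive from different animals.

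By structure, prototype galectins have a lone carbohydrate-binding domain, galectin-3 joins such a domain to a long flexible tail, and tandem-repeat galectins carry a pair of domains on a linker. Outside the cell they cross-link surface glycans. Inside it they bind glycans exposed when vesicles rupture, and in the gut galectin-4 is best known from the apical membrane of the epithelium.

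Total counts ran from 25472503 to 27218515 per library. Gsk3b had 152 and 149 CPM in the IEC-/- libraries, against 170 and 157 CPM in the IEC+/+ libraries (CPM, counts scaled to TMM-adjusted library size, per 1e+06). Its log2 fold change was -0.12 (edgeR adjusted p = 0.681), so the deletion is not shown by these levels. Gene counts can cover undeleted exons and cells other than epithelium, so these levels do not check the labels. IEC-/- replicate 2 stood apart by genes of stratified squamous epithelium, which are described with Lgals7. Markers of intestinal epithelium were abundant, with Epcam between 1045 and 1444 CPM in every library, and markers of fibroblasts, muscle, endothelium and immune cells were also counted.

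Galectin-4 and galectin-3 mRNA made the largest part of the family and were lower in the tumours labelled IEC-/-. The 8 genes together took 0.154% and 0.156% of all counts in the IEC-/- libraries, against 0.358% and 0.293% in the IEC+/+ libraries. Lgals4, Lgals6 and Lgals3 made 80.4% and 77.7% of galectin counts in the IEC-/- libraries and 92.6% and 90.7% in the IEC+/+ libraries. By the edgeR quasi-likelihood fit over all genes (Benjamini-Hochberg adjusted p under 0.05), 2 of the 8 members were called, both lower in IEC-/-, where 0.884% of the 16637 genes tested were called, 0.763% lower and 0.120% higher. Before adjustment, 1247 of these 16637 genes were higher and 1517 lower at an edgeR p under 0.05. Unadjusted counts from the same fit, given below, stand beside these. The median log2 fold change of the 8 members was -0.03, beside 0.01 over all genes tested. Nothing is read from these counts, because the same contrast chose the members. All 8 passed the filter on low counts.

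**Figure D1:**
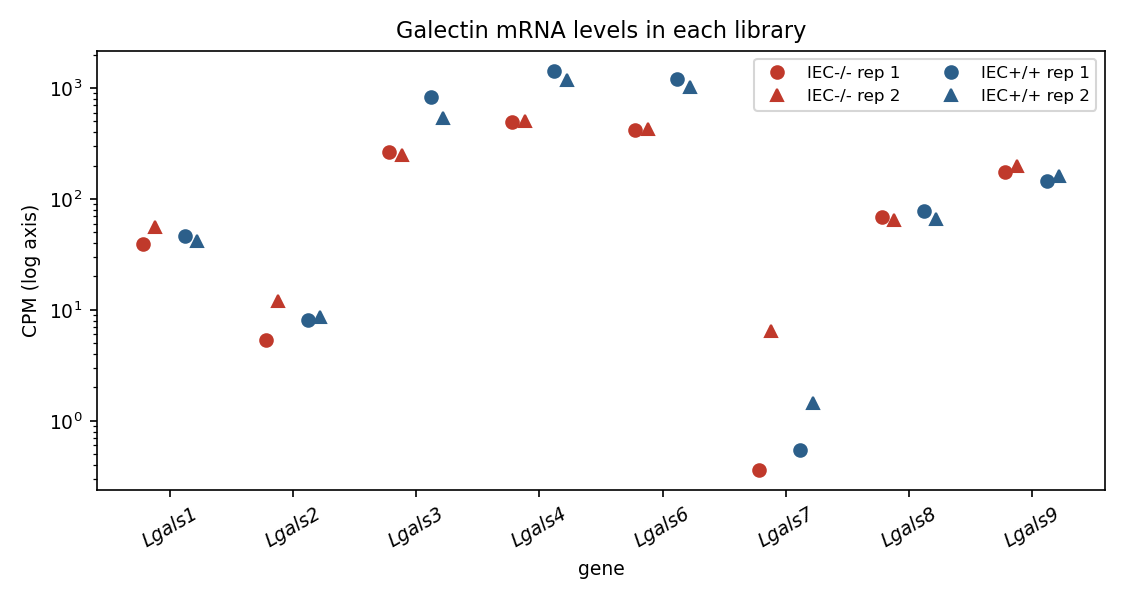
Level of each galectin gene (CPM, log axis) in the 2 IEC-/- libraries (red) and the 2 IEC+/+ libraries (blue), with replicate 1 as circles and replicate 2 as triangles. Lgals3, Lgals4 and Lgals6 lie lower in both IEC-/- libraries, Lgals9 lies slightly higher, and Lgals7 is highest in IEC-/- replicate 2.

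Lgals4 encodes the tandem-repeat galectin of the digestive epithelium. It had 496 and 501 CPM in the IEC-/- libraries, against 1431 and 1187 CPM in the IEC+/+ libraries. The groups did not overlap, which was so in the lower direction for 24.1% of all genes tested. The IEC-/- libraries lay within 1.01-fold of each other. Means were 499 ± 3.62 CPM in IEC-/- tumours and 1309 ± 172 CPM in IEC+/+ tumours (SD, n = 2 each), and the log2 fold change was -1.39 (SE 0.14), or 2.63-fold lower. Lgals4 lies on chromosome 7 from 28833854 to 28841708 on the plus strand (GRCm38, GENCODE M21).

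Lgals6, a mouse gene that arose as a duplicate of Lgals4 and encodes a very similar tandem-repeat protein, followed it closely. It had 421 and 429 CPM in the IEC-/- libraries, against 1211 and 1018 CPM in the IEC+/+ libraries, a log2 fold change of -1.39 (SE 0.14). The Lgals6 count was 0.850 and 0.856 times the Lgals4 count in the IEC-/- libraries and 0.846 and 0.857 times in the IEC+/+ libraries. The 95% intervals of these ratios, which cover counting error only, all overlapped, the widest reaching from 0.834 to 0.878. How reads that match both genes were counted is not given in the sources used here, so the 2 genes are uncertain as separate measurements and may be 1 signal counted under 2 symbols. Summed as 1 gene they had 918 and 930 CPM in IEC-/- tumours and 2642 and 2204 CPM in IEC+/+ tumours, with a log2 fold change of -1.39. Lgals6 has no entry in GENCODE M21, so no coordinates or exon length are given for it. Were the 2 symbols 1 signal, the summed level, the family shares and the count of called members would hold it for both.

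Lgals3, the chimera-type galectin made by epithelial cells and macrophages, had 267 and 249 CPM in the IEC-/- libraries, against 829 and 536 CPM in the IEC+/+ libraries. The groups did not overlap, but the IEC+/+ libraries differed from each other by 1.55-fold. Means were 258 ± 12.9 CPM in IEC-/- tumours and 682 ± 207 CPM in IEC+/+ tumours (SD, n = 2 each), and the log2 fold change was -1.40 (SE 0.22). It was as large a difference as that of Lgals4 with a larger error, and Lgals3 was not among the called members. Without IEC+/+ replicate 1 the log2 fold change of Lgals3 was -1.06, and without IEC+/+ replicate 2 it was -1.69. Lgals3 lies on chromosome 14 from 47367751 to 47386160 on the plus strand.

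The calls of Lgals4 and Lgals6 rested on both IEC+/+ libraries. The log2 fold change of Lgals4 was -1.26 without IEC+/+ replicate 1 and -1.52 without IEC+/+ replicate 2. Without either of them edgeR called no member and no gene at all. Without IEC-/- replicate 1 it called Lgals3, Lgals4 and Lgals6, beside 4.24% of all genes, and without IEC-/- replicate 2 it called Lgals4 and Lgals6, beside 3.32%. By DESeq2 3 of 8 members were called, all lower, beside 7.77% of all genes called and 4.87% called lower. By limma-voom 2 were called, beside 0.469%.

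Epithelial markers also had lower summed levels in the IEC-/- libraries. Of 12 general epithelial markers, 12 had lower means in IEC-/- and 1, Krt20, was called lower (0.763% of all genes were). By DESeq2 9 of the 12 were lower, beside 4.87% of all genes, and by limma-voom 1. Their summed level was 6592 and 6187 CPM in the IEC-/- libraries against 11280 and 9719 CPM in the IEC+/+ libraries. Of 11 colonocyte markers 5 were called lower by edgeR, beside 0.763% of all genes, 9 by DESeq2 and 1 by limma-voom. Their sum was 98.4 and 98.9 CPM in IEC-/- tumours against 819 and 429 CPM in IEC+/+ tumours. None of these markers was at 0 over the libraries. Epcam, an adhesion molecule of all intestinal epithelium, had 1270 and 1045 CPM in IEC-/- tumours and 1398 and 1444 CPM in IEC+/+ tumours. Lgals4 counts were 0.391 and 0.480 per Epcam count in IEC-/- and 1.02 and 0.822 per Epcam count in IEC+/+, but Epcam was among the markers with the smallest difference. Per Krt20 count, a marker of mature colonocytes, Lgals4 counts were 9.65 and 19.1 in IEC-/- and 4.38 and 4.97 in IEC+/+. Over the 12 markers, Lgals4 per marker count was lower in both IEC-/- libraries than in both IEC+/+ libraries for 9, higher for 2, Krt20 and Cdx2, and overlapping for 1, Tspan8. In bulk tissue, fewer cells of a type and less RNA per cell cannot be told apart. The part of the marker shifts in the galectin differences was not tested.

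Macrophages are another source of galectin-3. Of 10 macrophage markers 9 had higher means in IEC-/- and 7 lay higher without overlap, beside 24.0% of all genes. By edgeR 0 were called, beside 0.884% of all genes, and 4 were higher at an unadjusted p under 0.05, beside 1247 of 16637. By DESeq2 1 was called, beside 7.77% of all genes, and by limma-voom 0, beside 0.469%. The 10 markers summed to 1615 and 1141 CPM in the IEC-/- libraries against 1007 and 820 CPM in the IEC+/+ libraries. Mrc1 had the lower mean. The part of macrophages in the Lgals3 level was not tested.

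The promoters of Lgals4 and Lgals3, the 2 most abundant members with an entry, are shown because these genes were low together, and that of Lgals2 because it was not. Promoter windows of 6 members were found by symbol in RefSeq (GRCm38.p6), each running from 250 bases before to 50 bases after the annotated start, written 5′ to 3′ on the gene's strand. Capitals mark matches on either strand to 3 motifs: the TCF/LEF words CTTTGAA and CTTTGAT, through which beta-catenin acts, the CDX word TTTATNG, for the intestinal identity factors, and the KLF/SP word GGGCGG. No matches overlapped.
Lgals4 promoter, chr7:28833544-28833843, plus strand: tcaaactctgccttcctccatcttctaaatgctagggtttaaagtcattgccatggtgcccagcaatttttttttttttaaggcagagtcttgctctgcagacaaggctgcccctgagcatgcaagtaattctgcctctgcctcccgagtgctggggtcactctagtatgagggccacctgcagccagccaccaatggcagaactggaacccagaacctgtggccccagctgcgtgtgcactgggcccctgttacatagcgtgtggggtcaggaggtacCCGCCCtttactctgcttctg
Lgals3 promoter, chr14:47373610-47373909, plus strand: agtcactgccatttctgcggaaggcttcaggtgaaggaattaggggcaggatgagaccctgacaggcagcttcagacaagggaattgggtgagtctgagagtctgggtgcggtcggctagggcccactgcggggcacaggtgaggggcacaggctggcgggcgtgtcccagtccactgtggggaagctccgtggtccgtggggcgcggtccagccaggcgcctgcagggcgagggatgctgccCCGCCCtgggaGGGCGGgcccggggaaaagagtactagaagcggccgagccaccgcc
Lgals2 promoter, chr15:78855480-78855779, minus strand: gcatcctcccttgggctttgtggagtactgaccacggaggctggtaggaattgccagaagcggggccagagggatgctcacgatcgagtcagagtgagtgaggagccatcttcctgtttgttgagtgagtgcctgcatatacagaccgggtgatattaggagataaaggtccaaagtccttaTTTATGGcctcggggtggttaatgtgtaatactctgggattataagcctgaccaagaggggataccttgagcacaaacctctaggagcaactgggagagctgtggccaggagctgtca
In the Lgals4 window the KLF/SP word was found at bases 30 to 35 after the RefSeq start. In the Lgals3 window it was found at 2 places beside the start, and the Lgals7 window was the other that held it. It occurs in 35.7% of the 32851 RefSeq windows of the same length. The CDX word was found in the Lgals2 window alone among the 6, from base -68 to base -62, and occurs in 10.9% of windows. Neither TCF/LEF word, present in 8.65% of windows, was in any of the 6, which says only that these letters are not in these windows. The Lgals3 window was 67% G or C, against 54% for Lgals4 and 52% for Lgals2.

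The other tandem-repeat galectins had small differences between the groups. Lgals9, whose protein binds the T cell receptor TIM-3 among others, had 176 and 199 CPM in the IEC-/- libraries, against 144 and 162 CPM in the IEC+/+ libraries. The groups did not overlap, which was so for 48.0% of all genes tested and, in the higher direction, 24.0%. Means were 188 ± 16.5 CPM in IEC-/- tumours and 153 ± 12.9 CPM in IEC+/+ tumours (SD, n = 2 each), and the log2 fold change was 0.30 (SE 0.13). Lgals9 lies on chromosome 11 from 78962974 to 78984946 on the minus strand.

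Lgals8, which marks ruptured vesicles for autophagy in human cells, was the steadiest member. It had 68.1 and 64.8 CPM in the IEC-/- libraries, against 77.5 and 66.6 CPM in the IEC+/+ libraries, and its highest library lay 1.20-fold above its lowest. Its log2 fold change was -0.12 (SE 0.13), with a 95% interval of the ratio from 0.737 to 1.15. Lgals8 lies on chromosome 13 from 12439415 to 12464944 on the minus strand.

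The prototype galectins differed more between the IEC-/- libraries than between the groups. Lgals1, made largely by fibroblasts, endothelium and activated lymphocytes, had 39.1 and 55.9 CPM in the IEC-/- libraries, against 46.6 and 42.0 CPM in the IEC+/+ libraries. The groups overlapped, with a log2 fold change of 0.10 (SE 0.20). Processed pseudogenes of Lgals1 are annotated in GENCODE M21, so its count is uncertain where reads match both. Of 10 fibroblast markers 0 were called by edgeR, beside 0.884% of all genes, 0 by DESeq2, beside 7.77%, and 0 by limma-voom, beside 0.469%. By edgeR 2 were at an unadjusted p under 0.05, beside 2764 of all 16637 genes. The 10 markers summed to 3465 and 2660 CPM in IEC-/- tumours and 4429 and 2920 CPM in IEC+/+ tumours. Lgals1 was highest in IEC-/- replicate 2, the library with the lowest fibroblast sum and the highest T cell sum. Endothelial markers summed to 259 and 238 CPM in IEC-/- tumours and 206 and 202 CPM in IEC+/+ tumours. T cell markers summed to 24.5 and 29.7 CPM in IEC-/- tumours and 23.6 and 17.8 CPM in IEC+/+ tumours. The part of these cell types in the Lgals1 level was not tested.

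Lgals2, a galectin of the gut epithelium, had 5.32 and 12.1 CPM in the IEC-/- libraries, against 8.14 and 8.63 CPM in the IEC+/+ libraries. The IEC+/+ values lay between the IEC-/- values, which differed 2.28-fold. The log2 fold change was 0.06 (SE 0.42), and it was 0.52 without IEC-/- replicate 1 and -0.66 without IEC-/- replicate 2. Lgals1 and Lgals2 are neighbours on chromosome 15, 71195 bases apart and on opposite strands, with Lgals2 from 78850860 to 78855529 and Lgals1 from 78926725 to 78930465.

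Lgals7, the galectin of stratified epithelia such as skin and oesophagus, was low and set by a lone library. It was counted 10 and 168 times in the IEC-/- libraries, against 14 and 38 times in the IEC+/+ libraries, or 0.360 and 6.40 CPM in IEC-/- tumours and 0.540 and 1.44 CPM in IEC+/+ tumours. IEC-/- replicate 2 was 17.8-fold above IEC-/- replicate 1, and the groups overlapped. The log2 fold change was 1.76 (SE 1.25), and it was -1.46 without IEC-/- replicate 2. Lgals7 lies on chromosome 7 from 28863853 to 28866284, 22144 bases beyond Lgals4 on the same strand.

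The 12 squamous epithelium markers summed to 44.5 and 3069 CPM in the IEC-/- libraries, against 206 and 142 CPM in the IEC+/+ libraries. Of these 12 genes 11 were highest in IEC-/- replicate 2, by depth-scaled count, and 0 of the 10 tested were called by edgeR (0 at an unadjusted p under 0.05, 0 by DESeq2 and 0 by limma-voom). Krt5, a keratin of the basal squamous layer, had 0 and 795 CPM in IEC-/- tumours and 0.193 and 10.4 CPM in IEC+/+ tumours. Krt14, its partner keratin, had 13.0 and 864 CPM in IEC-/- tumours and 77.6 and 49.0 CPM in IEC+/+ tumours. None of the 12 was at 0 in every library. The part of squamous tissue in the Lgals7 level was not tested.

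**Figure D2:**
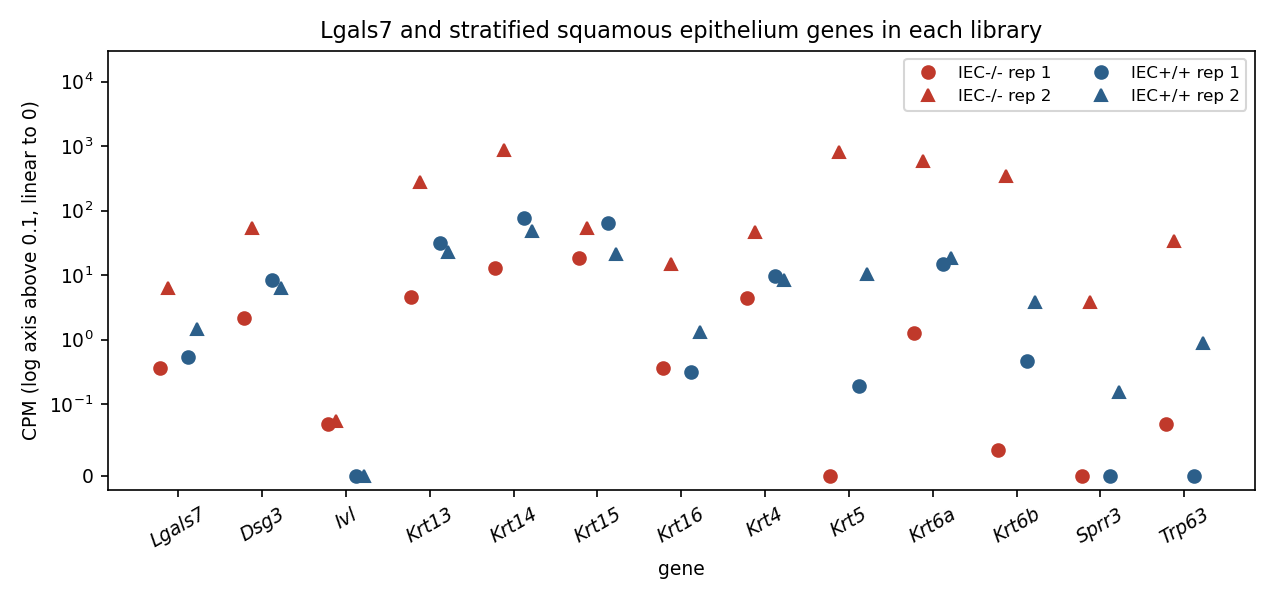
Level of Lgals7 and of 12 genes of stratified squamous epithelium (CPM, log axis above 0.1 and linear down to 0) in the 2 IEC-/- libraries (red) and the 2 IEC+/+ libraries (blue), with replicate 1 as circles and replicate 2 as triangles. IEC-/- replicate 2 lies highest for Lgals7, at 6.40 CPM, and for most squamous genes, while IEC-/- replicate 1 lies lowest for Lgals7, at 0.360 CPM.

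**Figure D3:**
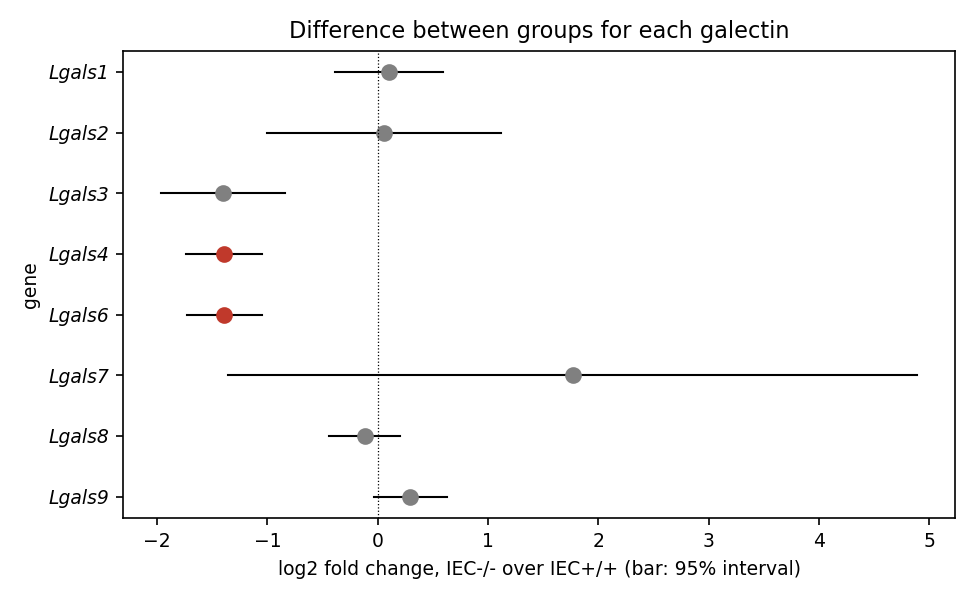
Log2 fold change of IEC-/- over IEC+/+ for each galectin gene, with its 95% interval from the edgeR fit as a bar. Red points are the 2 members called lower, Lgals4 and Lgals6, whose intervals are short. Lgals7 has the widest interval, from -1.36 to 4.89.

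The order of the members was the same in both groups once levels were divided by exon length in GENCODE M21 (CPM per kilobase, 7 members with an annotation). Lgals4 was highest at 215 ± 1.56 CPM per kilobase in IEC-/- and 565 ± 74.5 in IEC+/+ (SD, n = 2 each). Lgals3 came next, at 139 ± 6.91 CPM per kilobase in IEC-/- and 367 ± 111 in IEC+/+. After these stood Lgals9, at 87.8 ± 7.70 CPM per kilobase in IEC-/- and 71.5 ± 6.04 in IEC+/+. Lgals1, Lgals8, Lgals2 and Lgals7 followed. In every IEC-/- library and every IEC+/+ library Lgals4, Lgals3, Lgals9 and Lgals1 kept this order, whereas Lgals8 and Lgals2 changed places in IEC-/- replicate 2, with 17.6 and 20.5 CPM per kilobase. In IEC-/- these neighbours did not differ beyond their spread, with means of 18.0 ± 0.636 for Lgals8 and 14.7 ± 8.12 for Lgals2 (SD, n = 2). The Lgals4 level, in CPM, was 2.82 and 2.51 times that of Lgals9 in the IEC-/- libraries, against 9.96 and 7.33 times in the IEC+/+ libraries.

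Genes most like each member were sought among 10847 other genes with at least 10 CPM on average. The measure was the root mean square distance of centred log2 CPM over the 4 libraries. The members themselves and gene models with Gm or Rik symbols were left out, so Lgals4 and Lgals6 could not be named for each other. With 4 libraries many genes lie close by, and no p is given. Among these genes, nearest to Lgals4 were Agpat4 (distance 0.04), Ccdc71l (0.05) and Slc6a8, the creatine transporter (0.06). Slc6a8 had 120 and 119 CPM in IEC-/- tumours and 328 and 258 CPM in IEC+/+ tumours. Nearest to Lgals3 were Cd55, a complement regulator, Klf6, a transcription factor, and Car2, a carbonic anhydrase, at 0.04 to 0.06. Car2 had 77.1 and 73.9 CPM in IEC-/- tumours and 245 and 174 CPM in IEC+/+ tumours. Nearest to Lgals7 were Gbp2, Pou2af1 and Tgm1, the transglutaminase of the squamous cell envelope, at 0.37 to 0.41. These distances were far larger than the 0.04 to 0.06 of the genes named for Lgals4 and Lgals3, so they are not close matches. Gbp2 had 12.08 and 159.6 CPM in IEC-/- tumours and 21.96 and 26.64 CPM in IEC+/+ tumours. Pou2af1 had 4.532 and 42.01 CPM in IEC-/- tumours and 8.376 and 15.48 CPM in IEC+/+ tumours. Tgm1 had 5.36 and 73.1 CPM in IEC-/- tumours and 5.48 and 9.01 CPM in IEC+/+ tumours. Among the same genes Lgals6 lay nearest to Ccdc71l, Lgals1 to Ufd1, Lgals2 to Klhdc7a, Lgals8 to Mbd2 and Lgals9 to Mypop.

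Other genes around the galectins were then tested with the same edgeR fit. Of 4 galectin relatives 3 were tested, and 0 were called (1 at an unadjusted p under 0.05, 0 by DESeq2 and 0 by limma-voom). Lgalsl, a galectin-related protein without sugar binding, had 49.6 and 41.3 CPM in IEC-/- tumours and 88.5 and 58.2 CPM in IEC+/+ tumours (log2 fold change -0.69, SE 0.23, edgeR adjusted p = 0.233). Lgals3bp, a secreted glycoprotein that binds galectin-3, had 371 and 497 CPM in IEC-/- tumours and 378 and 354 CPM in IEC+/+ tumours (0.25, SE 0.17, edgeR adjusted p = 0.539). Lgals12, known from fat cells, had 23.5 and 17.0 CPM in IEC-/- tumours and 25.1 and 21.0 CPM in IEC+/+ tumours (-0.19, SE 0.23, edgeR adjusted p = 0.741). Grifin, a lens galectin-like gene, had a count of 0 in all 4 libraries, which allows up to 3 counts in each.

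Among enzymes that build the sugars galectins bind, B3gnt3, Mgat4a and B3gnt5 were lower in the IEC-/- tumours. Of 25 enzyme genes tested, 3 fell and 0 rose, beside 0.763% of all genes called lower, and 23 had lower means in IEC-/- with 18 not overlapping between the groups (24.1% of all genes did not overlap in that direction). The median log2 fold change was -0.60, beside 0.01 over all genes. B3gnt3, which extends mucin-type core glycans with N-acetylglucosamine, had 75.7 and 72.9 CPM in IEC-/- tumours against 209 and 204 CPM in IEC+/+ tumours (log2 fold change -1.48, SE 0.12, edgeR adjusted p = 0.0322). Mgat4a, which adds a branch to N-glycans, had 246 and 236 CPM in IEC-/- tumours against 600 and 490 CPM in IEC+/+ tumours (-1.18, SE 0.14, edgeR adjusted p = 0.0461). B3gnt5, which starts the lacto-series of glycolipids, had 77.3 and 82.8 CPM in IEC-/- tumours against 166 and 156 CPM in IEC+/+ tumours (-1.01, SE 0.12, edgeR adjusted p = 0.0428).

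Of the enzymes that did not pass, St3gal6, a sialyltransferase, came closest, with 52.9 and 54.8 CPM in IEC-/- tumours and 91.3 and 92.0 CPM in IEC+/+ tumours (log2 fold change -0.77, SE 0.11, edgeR adjusted p = 0.0584). B3gnt7, which extends poly-N-acetyllactosamine chains and was singled out after its values were seen, had the lowest log2 fold change of the list, -2.87 (SE 0.45, edgeR adjusted p = 0.0622), with 11.2 and 28.0 CPM in IEC-/- tumours and 164 and 123 CPM in IEC+/+ tumours. Mgat5, the branching enzyme whose products bind galectin-3 most strongly, was singled out likewise and had -0.51 (edgeR adjusted p = 0.287). The calls of B3gnt3, Mgat4a and B3gnt5 did not hold once either IEC+/+ library was left out. Without IEC+/+ replicates 1 and 2 the log2 fold changes were -1.46 and -1.5 for B3gnt3 and -1.03 and -1.32 for Mgat4a. Those of B3gnt5 were -0.97 and -1.05. By DESeq2 12 fell, beside 4.87% of all genes. Goblet cells make much of the gut's mucin-type glycan. Of 8 goblet markers 8 had lower means in IEC-/- and 2 were called lower by edgeR, beside 0.763% of all genes. By DESeq2 6 were lower, beside 4.87% of all genes, and by limma-voom 2. The 8 markers summed to 557 and 1121 CPM in the IEC-/- libraries against 5462 and 3268 CPM in the IEC+/+ libraries, and none was at 0. The part of these goblet markers, and of the colonocyte markers described with Lgals4, in the enzyme levels was not tested.

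**Figure D4:**
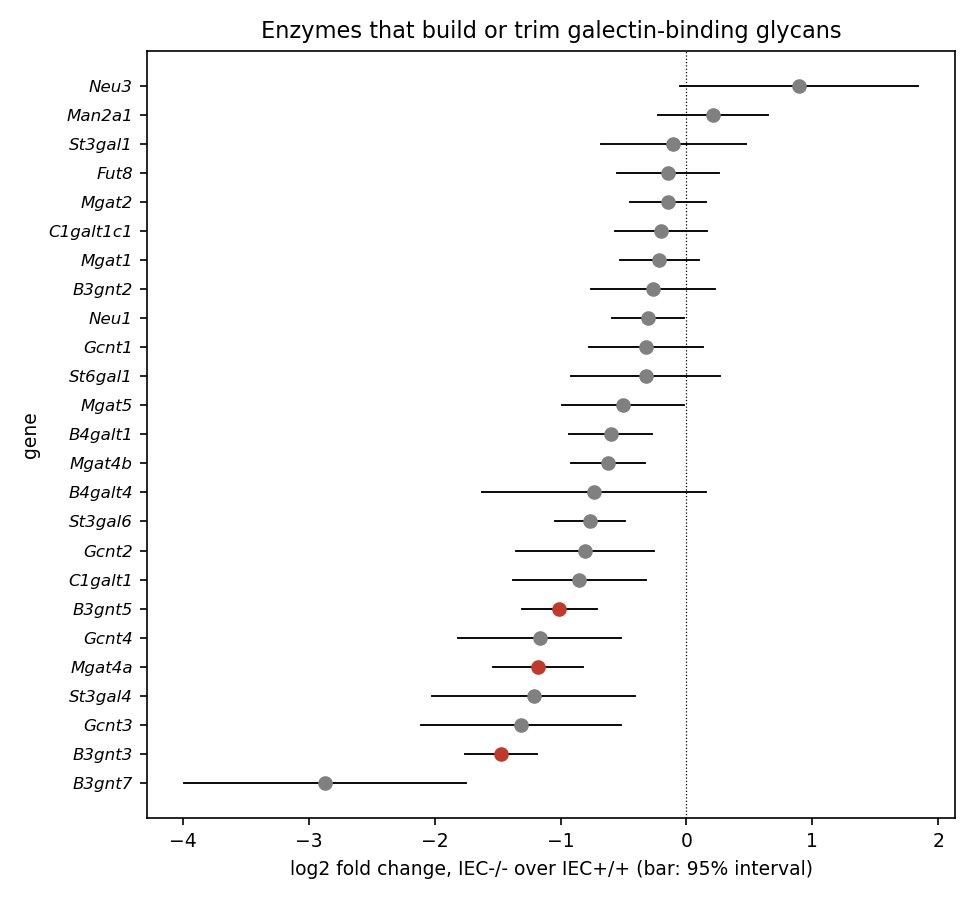
Log2 fold change of IEC-/- over IEC+/+ for 25 genes of enzymes that build or trim galectin-binding glycans, with the 95% interval of the edgeR fit as a bar. Red points are the 3 genes that fell, B3gnt3, B3gnt5 and Mgat4a. Of the 25 points 23 lie below 0.

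Galectin-4 holds glycoproteins and sulfated glycolipids in rafts of the brush border. In a broad list of raft cargo, glycolipid enzymes, other sulfotransferases of the Gal3st family and the brush border gene Vil1, Muc13, Fa2h and Cdhr5 were lower. Of 16 tested, 3 fell and 0 rose by edgeR (8 lower and 2 higher at an unadjusted p under 0.05, 7 and 2 by DESeq2), beside 0.763% of all genes called lower by edgeR and 4.87% by DESeq2. The median log2 fold change was -0.78, beside 0.01 over all genes. Muc13, a membrane mucin, had 908 and 684 CPM in IEC-/- tumours against 2218 and 1976 CPM in IEC+/+ tumours (-1.40, SE 0.18, edgeR adjusted p = 0.0461). Fa2h, which hydroxylates fatty acids of sphingolipids, had 6.22 and 5.11 CPM in IEC-/- tumours against 31.4 and 23.3 CPM in IEC+/+ tumours (-2.27, SE 0.25, edgeR adjusted p = 0.0413). Cdhr5, a brush border protocadherin, had 91.5 and 66.3 CPM in IEC-/- tumours against 352 and 243 CPM in IEC+/+ tumours (-1.91, SE 0.25, edgeR adjusted p = 0.0472). Anpep, aminopeptidase N, lay in the other direction without passing, at 47.5 and 60.8 CPM in IEC-/- tumours and 22.9 and 15.2 CPM in IEC+/+ tumours (1.51, SE 0.24, edgeR adjusted p = 0.0678). Mme, singled out after its values were seen, also lay higher, at 12.3 and 6.90 CPM in IEC-/- tumours and 1.97 and 2.80 CPM in IEC+/+ tumours (2.01, SE 0.41, edgeR adjusted p = 0.104). Dpp4, Gal3st1 and Ugt8a, singled out likewise, had 0.06, 0.002 and -0.27, with overlapping groups. Of the 16, 11 had lower and 5 higher means. The calls of Muc13, Fa2h and Cdhr5 did not hold once either IEC+/+ library was left out. Without IEC+/+ replicates 1 and 2 the log2 fold changes were -1.31 and -1.48 for Muc13 and -2.04 and -2.47 for Fa2h. Those of Cdhr5 were -1.62 and -2.16. The colonocyte and goblet sums given above differed between the same groups, and their part in these levels was not tested. By limma-voom 0 passed (10 at an unadjusted p under 0.05, beside 2653 of all 16637 genes), and with upper-quartile scaling 1, Fa2h.

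Proteins that galectins bind at the cell surface showed no edgeR call. Of 22 counter-receptor genes 0 passed by edgeR, beside 0.884% of all genes, a share at which a list this short can hold 0 calls. Before adjustment 4 were higher and 2 lower at p under 0.05, beside 1247 and 1517 of all 16637 genes. By DESeq2 3 passed, beside 7.77% of all genes, and by limma-voom 0, beside 0.469%. The median log2 fold change was -0.04. Egfr, the EGF receptor, had 35.8 and 31.4 CPM in IEC-/- tumours and 73.1 and 51.4 CPM in IEC+/+ tumours (-0.89, SE 0.20, edgeR adjusted p = 0.122). Muc1, a membrane mucin, had 20.2 and 18.3 CPM in IEC-/- tumours and 26.4 and 46.4 CPM in IEC+/+ tumours (-0.92, SE 0.29, edgeR adjusted p = 0.217). Spn, the leukocyte sialomucin CD43, had 9.42 and 13.8 CPM in IEC-/- tumours and 3.20 and 6.39 CPM in IEC+/+ tumours (1.27, SE 0.42, edgeR adjusted p = 0.233). Itgam, an integrin chain of myeloid cells, had 37.8 and 38.6 CPM in IEC-/- tumours and 24.2 and 26.2 CPM in IEC+/+ tumours (0.60, SE 0.14, edgeR adjusted p = 0.125).

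Genes that act with galectins on ruptured vesicles also showed no edgeR call. Of 21 tested 0 passed by edgeR, beside 0.884% of all genes, a share at which a list this short can hold 0 calls. Before adjustment 1 was higher and 3 were lower at p under 0.05, beside 1247 and 1517 of all 16637 genes. By DESeq2 1 passed, beside 7.77% of all genes, and by limma-voom 0, beside 0.469%. The median log2 fold change was -0.02. Trim16, which joins galectin-3 at damaged membranes in human cells, had 48.1 and 53.8 CPM in IEC-/- tumours and 106 and 81.9 CPM in IEC+/+ tumours (-0.89, SE 0.17, edgeR adjusted p = 0.0874). Ulk1, a kinase that starts autophagy, had 106 and 109 CPM in IEC-/- tumours and 81.6 and 87.8 CPM in IEC+/+ tumours (0.34, SE 0.12, edgeR adjusted p = 0.243). Tax1bp1, an autophagy receptor, and Pdcd6ip, which recruits membrane repair proteins, had log2 fold changes of -0.38 and -0.35 (edgeR adjusted p = 0.235 and 0.253).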

How the data were processed

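Each library has 1 deposited file of whole-number read counts by gene symbol, not normalized as far as the values show. TopHat, limma, edgeR and the mm10 build are named in the submitters' processing notes, without versions or roles, and the counting tool, annotation and use of strand are not given in the sources used here. Groups came from the sample titles. The members and lists were chosen with earlier results of these data known. Counts were fitted with edgeR 4.0.16 in R 4.3.3 (TMM, default expression filter, quasi-likelihood F-test with group as the sole term) on 16637 of 20618 symbols with a count. P-values were adjusted by Benjamini-Hochberg over all genes tested, with calls under 0.05. They measure only the spread between these libraries, 2 per group, and an exact permutation test of a single gene could not go below p = 0.333. Standard errors come from the F statistic, and levels are CPM of scaled library sizes (factors 0.955 to 1.05). The chi-square of counts per degree of freedom was 33.8 between IEC+/+ libraries and 66.6 between IEC-/- libraries, so none repeated another. Genes named from lists were the called ones, or up to 4 by smallest p. Muc17 was not in the files. Alternatives were other scaling, no filter, DESeq2 1.42.0, limma-voom (limma 3.58.1), a replicate block, each library left out, and Lgals4 and Lgals6 summed.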

Additional observations from a re-analysis of the deposited data

How the results depend on the processing

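With 2 libraries per group the calls depend on the processing and on single libraries. Over all genes 147 were called, 376 without the expression filter, 1293 by DESeq2 and 78 by limma-voom, and 0 to 729 with 1 library left out. Of the members 2 were called, and 0 to 3 with 1 library left out. The enzyme list had 3 called genes, 5 without the filter, 12 by DESeq2 and 0 to 9 with 1 library left out. The raft cargo list had 3, and 1 with upper-quartile scaling, 5 without the filter, 9 by DESeq2, 0 by limma-voom and 0 to 7 with 1 library left out. The counter-receptor list had 0 by edgeR and 3 by DESeq2, and the vesicle list 0 and 1. The cause of these shifts was not tested. Log2 fold changes ran from -1.52 to -1.26 for Lgals4, -1.69 to -1.06 for Lgals3, 0.20 to 0.38 for Lgals9 and -0.23 to -0.01 for Lgals8 over 11 alternatives each, with the sign kept. The sign changed for Lgals1, Lgals2 and Lgals7 without IEC-/- replicate 2, and for Lgals2 also by limma-voom (-0.07) and with the replicate block (-0.05). Lgals3 passed without the filter, by DESeq2, with the replicate block and without IEC-/- replicate 1. Same-numbered libraries deviated together with a correlation of 0.16, in 2 pairs, too few to tell whether the numbers mark a shared source; with the replicate block 211 genes and 3 members were called. Depth was similar in all libraries, and only Lgals7 is limited by low counts.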
